A study of Mus musculus with 8 samples.

Results

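Glycolysis and the pentose phosphate pathway were followed through 33 genes, from the glucose transporter Slc2a1 to lactate export, pyruvate dehydrogenase and transaldolase, in colon intestinal epithelial cells of mice. The genes were taken by name from the deposited table of 55487 genes, on a list chosen with earlier results of these data known. All 33 names were found, on 34 rows, because Aldoa names 2 rows. Of these, 32 genes reached 1 TPM (a length-corrected transcript abundance scaled to a fixed sum per library) in at least 4 of the 8 libraries and were tested. The neuronal enolase gene Eno2, listed at 0 to 0.45 TPM, and the second Aldoa row, at 0.41 to 1.47 TPM, were not tested. Pfkfb3 entered mainly through the PIM1+/- libraries, since a single WT library reached 1 TPM.

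Glycolysis breaks glucose down to pyruvate in the cytosol, with committed control at hexokinase and phosphofructokinase. Pyruvate is then reduced to lactate and exported, or enters mitochondria through the pyruvate dehydrogenase complex. The pentose phosphate pathway branches off at glucose 6-phosphate, where an oxidative arm makes NADPH and a non-oxidative arm exchanges ribose and glycolytic sugars, and colon epithelium is known for drawing much of its mitochondrial fuel from bacterial butyrate rather than from glucose.

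The study compared 4 libraries from wild type (WT) mice with 4 from mice labelled PIM1+/-, all on the C57BL/6J strain, by sequencing of total RNA. By the usual notation the label PIM1+/- denotes a heterozygous genotype of Pim1, which encodes a serine/threonine kinase, and PIM1+/- below means the libraries so labelled. The sources used here do not say how the allele was made, nor the age or sex of the mice. The labels do not say whether the libraries of a genotype came from separate mice, so the p-values rest on the spread among the 8 libraries as given, which may be technical. In what follows, values are given for replicates 1 to 4 of each genotype in that order, fold changes are log2(TPM + 1) differences of PIM1+/- minus WT with their standard error, and adjusted p-values come from limma over all 12760 tested genes. Means are given ± SD over the 4 libraries of a genotype. A gene was called at an adjusted p below 0.05. The log2(TPM + 1) scale understates changes of genes near 1 TPM.

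Read depth is unknown, since TPM does not carry it. Pim1 itself measured 8.79, 7.86, 5.72 and 8.83 TPM in WT and 7.97, 7.23, 5.64 and 5.84 TPM in PIM1+/-, and its change of -0.19 ± 0.15 (adjusted p = 0.411) was not called, with a 95% interval from -0.53 to 0.14. A halved WT level would lie at -0.84 on this scale, outside that interval, so the transcript of the targeted gene did not check the genotype labels. Of 12 epithelial markers 7 rose (58.3%, against 8.93% of all tested genes), with a summed level of 22240 to 27777 TPM in WT and 31141 to 37145 TPM in PIM1+/-. The median log2 fold change of the 12 was 0.23. Car1 alone averaged 7135 TPM in WT and 12859 TPM in PIM1+/-. Epcam, Muc2, Lgals4, Cdh1 and Slc26a3 were not called, with negative changes for Lgals4, Cdh1 and Slc26a3. The summed fibroblast, smooth muscle, and neuron and glia lists stayed at or below 2.29 TPM in each library, with Lum at 0. Lymphocyte markers summed to 7.26 to 14.3 TPM in WT and 26.1 to 56.1 TPM in PIM1+/-. Of all 12, tested or not, 9 were higher with no overlap between genotypes. Of the 10 tested, 7 were higher with no overlap, against 11.9% of all tested genes. Of the 7 called, Itgae and Cd8a passed the filter through PIM1+/- alone, and Cd3e and Gzmb reached 1 TPM in 1 WT library. Macrophage, mast cell and granulocyte markers summed to 2.13 to 4.29 TPM and 13.9 to 17.7 TPM. Of the 12, tested or not, 4 did not overlap (C1qa, Mcpt1, Mcpt2 and Itgax, all higher). Among all tested genes 11.9% were higher without overlap, but most of these 12 markers were not tested, so the shares are not compared. The 3 that were tested passed the filter through PIM1+/- alone or with 1 WT library, the other 9, among them Lyz2, Csf1r and Itgam, were not tested, and S100a9 was at 0. Red cell markers summed to 5.88 to 14.9 TPM in WT and 21.0 to 28.1 TPM in PIM1+/-. Of these, 2 of 3 tested were called higher, against 8.93% of all tested genes. B and plasma cell markers, at 4.28 to 14.5 TPM and 8.28 to 13.5 TPM, overlapped between genotypes, as did endothelial markers at 3.55 to 5.76 TPM and 3.22 to 4.20 TPM. The part of these markers in the results was not tested, and in bulk RNA a change in the number of cells cannot be told apart from a change in RNA per cell. Mitochondrially encoded transcripts took 16.1% to 18.4% of TPM in WT and 12.5% to 13.7% in PIM1+/-, and with their 16 nuclear copies 27.1% to 30.4% and 20.9% to 23.5%, and the TPM of all other genes depends on that share.

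Of the 32 tested genes 13 rose in PIM1+/- and 2 fell. That is 40.6% called higher against 8.93% of all tested genes, and 6.25% called lower against 8.54%. In either direction 15 were called, or 46.9%, against 17.5% of all genes. Counts given below for single steps are to be read against the same 8.93% and 8.54%. The genes that rose were Slc2a1, Pfkp, Aldoa, Tpi1, Gapdh, Pgk1, Eno1, Ldha, Slc16a3, G6pdx, Pgd, Tkt and Taldo1, and those that fell were Pfkm and Pfkfb4. The 8 libraries did not overlap between genotypes for 14 genes that were higher and 2 that were lower, which is to be read against 11.9% and 11.6% of all genes. Most changes were small. The median log2 fold change was 0.23 over the 32 genes, 27 of which lay above 0, and -0.01 over all tested genes. Summed over the list, transcripts came to 7429 ± 367 TPM (SD, n = 4) in WT and 8766 ± 299 TPM in PIM1+/-, a ratio of 1.18 with no overlap.

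The number of calls varied with the scaling and with single libraries. With mitochondrial transcripts and their nuclear copies left out before scaling, the median of all genes moved to -0.11 and that of the 32 genes to 0.13, and 8 genes were called higher and 3 lower. Over all genes the same rescaling turned 1139 higher and 1090 lower calls (51.1% higher) into 736 and 2237 (24.8% higher). Pfkp, Tpi1, Pgk1, Eno1, Ldha, Pgd and Taldo1 were called under each of the 17 alternatives at a threshold of 0.05, and Slc16a3 in the 16 that tested it. Calls on Slc2a1, Aldoa, Gapdh and G6pdx, which had the largest adjusted p among the genes that rose, were lost in most alternatives, limma without the trend among them. Of the 17, Slc2a1 and Aldoa were each called in 4, Gapdh in 6 and G6pdx in 7, and all 4 were lost under that rescaling and without WT replicate 1 or WT replicate 4. Tkt, called in 13, was also lost in these 3 settings. Leaving out either of these WT libraries gave 8 genes called higher and 0 lower. Pfkm and Pfkfb4 stayed called under each scaling but were lost without WT replicate 1 or 4, without PIM1+/- replicate 2 or 3, and with no filter on low values. Pfkm was also lost without PIM1+/- replicate 4. Pfkfb4 was also lost without WT replicate 2 or 3 and with the replicate number as a block. Of the 17 alternatives, Pfkm was called in 11 and Pfkfb4 in 9.

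**Figure D1:**
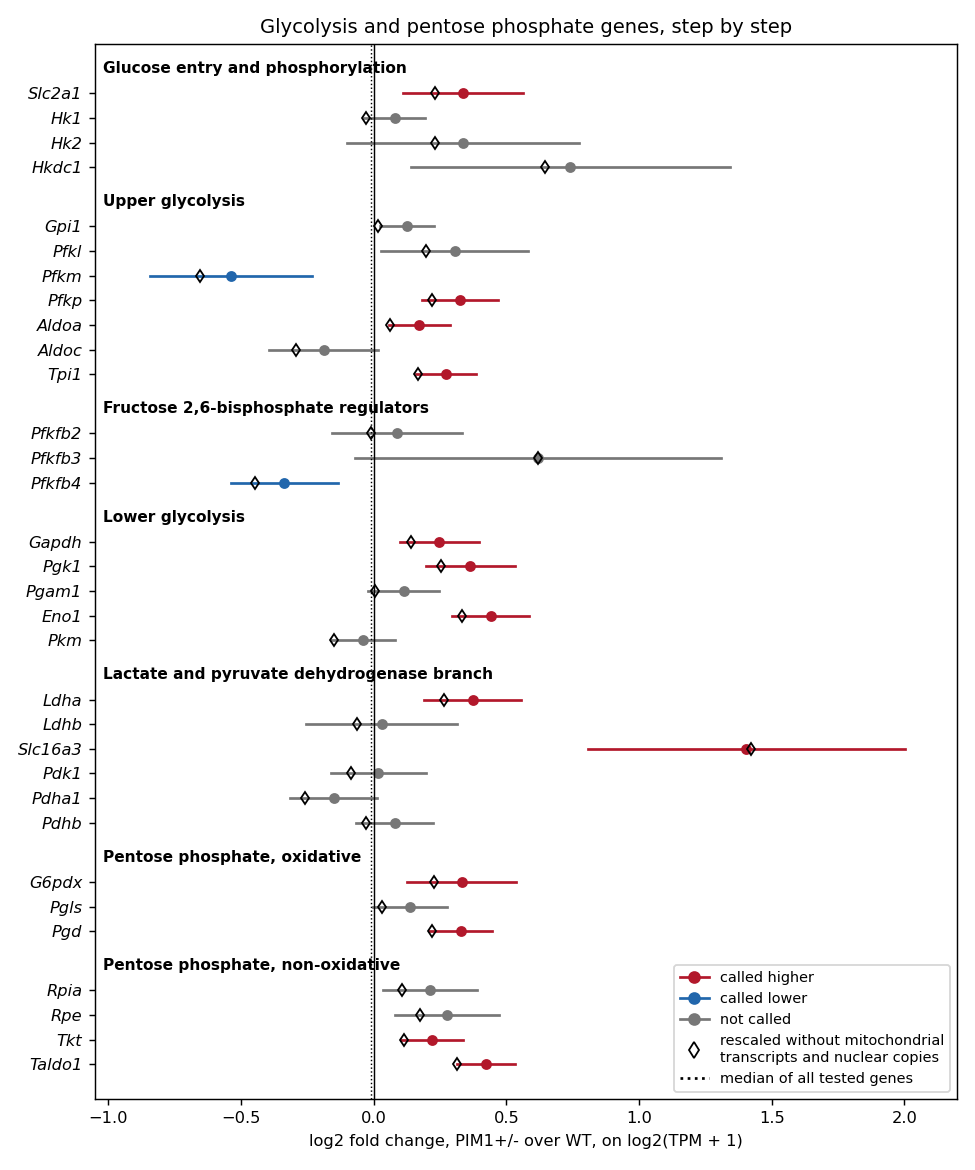
Log2 fold change of PIM1+/- over WT for the 32 tested genes, grouped by step, with 95% intervals from limma (4 libraries a genotype); the horizontal axis is a difference of log2(TPM + 1). Slc16a3 at 1.40 stands to the right of the other genes. Pfkm and Pfkfb4, called lower, lie to the left of 0, as do Aldoc, Pdha1 and Pkm, which were not called. The open diamonds show each value after rescaling without mitochondrial transcripts and nuclear copies.

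Promoter sequence was read from RefSeq for all 33 genes (GRCm38.p6, 250 bases upstream of the start, 1 start per gene), since genes of this pathway are textbook targets of hypoxia-inducible factors, which bind ACGTG or GCGTG, and of E-box factors such as Myc, which bind CACGTG. On either strand, ACGTG was found in 10 of the 33 windows and in 16.5% of 27026 mouse windows of the same length. GCGTG was found in 20 of the 33 and in 28.4% of all windows, and 1 or both in 25 of the 33 and in 38.7%. Of the 13 genes that rose 4 held ACGTG, and of the other 20 genes 6 held it. CACGTG, which contains ACGTG on both strands, occurred in 4 windows (6.06% of all windows). TGACNNNGC, the core of the antioxidant response element, occurred in G6pdx alone (10.2%), the core of the interferon-stimulated response element in Rpe alone (3.06%), and TTCNNNGAA, the core of the gamma-activated site, in none (7.06%). GC content was higher in these windows than in all windows, with medians of 59.6% and 52.4%, and the motifs hold G and C bases. The 4 windows with ACGTG among the genes that rose are shown 5′ to 3′ on the gene's own strand with ACGTG or its reverse complement in capitals, to show where it lies; a match is a string of letters and not a measured binding site. Those of Slc2a1 (chr4:119108495-119108744), Pgk1 (chrX:106186850-106187099), Ldha (chr7:46845554-46845803) and Slc16a3 (chr11:120948817-120949066) are all on the plus strand.
Slc2a1: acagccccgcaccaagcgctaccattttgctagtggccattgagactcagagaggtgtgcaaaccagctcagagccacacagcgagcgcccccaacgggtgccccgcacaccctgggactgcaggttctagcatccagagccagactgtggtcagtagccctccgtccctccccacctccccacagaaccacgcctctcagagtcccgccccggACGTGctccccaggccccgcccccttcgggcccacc
Pgk1: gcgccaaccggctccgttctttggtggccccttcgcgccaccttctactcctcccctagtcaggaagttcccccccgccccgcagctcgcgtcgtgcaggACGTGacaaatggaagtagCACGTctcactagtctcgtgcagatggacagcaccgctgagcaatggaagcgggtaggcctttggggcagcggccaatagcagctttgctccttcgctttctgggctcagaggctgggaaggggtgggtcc
Ldha: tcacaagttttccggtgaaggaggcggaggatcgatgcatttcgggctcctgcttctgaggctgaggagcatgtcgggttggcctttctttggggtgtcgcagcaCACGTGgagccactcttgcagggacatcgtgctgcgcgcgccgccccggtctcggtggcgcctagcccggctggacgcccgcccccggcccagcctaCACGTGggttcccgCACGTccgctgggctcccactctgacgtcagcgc
Slc16a3: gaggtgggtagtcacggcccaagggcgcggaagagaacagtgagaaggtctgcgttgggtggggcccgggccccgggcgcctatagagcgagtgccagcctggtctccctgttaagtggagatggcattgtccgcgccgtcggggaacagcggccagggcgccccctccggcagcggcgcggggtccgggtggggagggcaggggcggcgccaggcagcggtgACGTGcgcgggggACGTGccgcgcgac
The Slc2a1 window holds 1 match, those of Pgk1 and Slc16a3 hold 2 each, and the Ldha window holds 2 full E-boxes beside a further match.

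Glucose entry and phosphorylation gave a higher sum in PIM1+/-, at 248 ± 39.5 TPM against 201 ± 6.99 TPM in WT, but of its 4 genes Slc2a1 alone was called. The lowest PIM1+/- sum, 207 TPM, was just above the highest WT sum, 206 TPM, and PIM1+/- replicate 1 was highest at 302 TPM. Slc2a1 (ENSMUSG00000028645, chr4:119108711-119137983) encodes GLUT1, the main basal glucose transporter, and measured 50.6, 46.1, 49.2 and 47.5 TPM in WT and 71.1, 63.4, 63.5 and 49.3 TPM in PIM1+/-. PIM1+/- replicate 4 lay among the WT libraries and the other 3 above them, and the change was 0.34 ± 0.10 (adjusted p = 0.0487). It carried 80.9% ± 1.59 of the TPM of 7 hexose transporter genes in WT and 87.5% ± 2.90 in PIM1+/-, without overlap. Slc2a8, an intracellular transporter, fell from 7.57 ± 1.13 to 5.23 ± 0.436 TPM (log2 change -0.45 ± 0.12, adjusted p = 0.0281).

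The hexokinases trap glucose as glucose 6-phosphate. Hk1, the housekeeping form, ranged from 70.2 to 79.7 TPM over all libraries, and its value of 0.08 ± 0.05 (adjusted p = 0.322) turned to -0.03 under the rescaling without mitochondrial transcripts and nuclear copies. Hk2, the inducible form, measured 64.5, 66.6, 68.7 and 54.4 TPM in WT and 125, 74.3, 74.3 and 59.8 TPM in PIM1+/-. A single library, PIM1+/- replicate 1, stood far above the rest, and the difference of 0.34 ± 0.19 (adjusted p = 0.266) was not called. Hkdc1, a hexokinase domain protein expressed in gut epithelium, measured 17.1, 21.2, 7.31 and 19.1 TPM in WT and 26.3, 24.5, 27.5 and 25.4 TPM in PIM1+/-. The genotypes did not overlap, yet WT replicate 3 lay well below the other WT libraries and the difference of 0.74 ± 0.27 (adjusted p = 0.0878) was not called. Without that library it was called, at 0.42 (adjusted p = 0.0181). Hk3, the leukocyte form, was at or below 0.10 TPM in each library.

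Upper glycolysis carried 3 genes that rose and 1 that fell among 7. Gpi1, which isomerises glucose 6-phosphate, differed by 0.13 ± 0.04 (adjusted p = 0.0836) without overlap and was not called. Phosphofructokinase, the committed step, is a tetramer of liver (Pfkl), muscle (Pfkm) and platelet (Pfkp) subunits, and the 3 genes did not move alike. Pfkp (ENSMUSG00000021196, chr13:6579768-6648777) measured 81.7, 81.6, 76.0 and 75.4 TPM in WT and 104, 106, 90.9 and 95 TPM in PIM1+/-. All PIM1+/- libraries lay above all WT libraries, with a change of 0.33 ± 0.06 (adjusted p = 0.00884). Pfkl measured 95.2, 83.7, 81.5 and 91.2 TPM in WT and 117, 122, 119 and 81.9 TPM in PIM1+/-. PIM1+/- replicates 1 to 3 were above every WT library and replicate 4 was next to the lowest WT library. The difference of 0.31 ± 0.12 (adjusted p = 0.121) was not called with that library and was called without it (adjusted p = 0.00462). Pfkm (ENSMUSG00000033065, chr15:98092589-98132451) measured 7.58, 5.16, 5.66 and 7.54 TPM in WT and 4.89, 3.95, 3.76 and 3.88 TPM in PIM1+/-. Every PIM1+/- library was below every WT library, with a change of -0.54 ± 0.14 (adjusted p = 0.0264). The Pfkm share of phosphofructokinase TPM was 3.73% ± 0.597 in WT and 1.94% ± 0.243 in PIM1+/-, so the total, 173 ± 8.88 TPM and 213 ± 22.8 TPM, was made almost wholly of the other two genes. Exons of Pfkm and Pfkp overlap genes on the opposite strand, Senp1 at 9.56 and 11.1 TPM and Pitrm1 at 15.1 and 15.6 TPM in WT and PIM1+/-, and the sources used here do not say whether reads were assigned by strand.

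Aldolase and triose phosphate isomerase split fructose 1,6-bisphosphate and interconvert the products. Aldoa (ENSMUSG00000030695, chr7:126795234-126800751), the form of most tissues, measured 1051, 1077, 984 and 1015 TPM in WT and 1142, 1243, 1147 and 1119 TPM in PIM1+/-. The genotypes were separate by a narrow margin, with a change of 0.17 ± 0.05 (adjusted p = 0.0474). Aldoc, the brain form, ranged from 9.06 to 13.1 TPM and was not called, at -0.19 ± 0.09 (adjusted p = 0.19). Tpi1 (ENSMUSG00000023456, chr6:124810586-124814296) measured 441, 451, 419 and 410.3 TPM in WT and 542, 535, 508 and 498 TPM in PIM1+/-. Its lowest PIM1+/- library was above its highest WT library, and it rose by 0.27 ± 0.05 (adjusted p = 0.00702).

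Fructose 2,6-bisphosphate, made and removed by the bifunctional PFKFB enzymes, is the strongest activator of phosphofructokinase. Pfkfb4 measured 12.9, 11.8, 11.8 and 11.1 TPM in WT and 10.2, 8.03, 8.84 and 9.89 TPM in PIM1+/-. Each PIM1+/- library was below each WT library, and the gene fell by 0.34 ± 0.09 on the log2 scale (adjusted p = 0.0319). Pfkfb3, the form with the highest ratio of kinase to phosphatase activity, measured 0.860, 1.03, 0.720 and 0.680 TPM in WT and 4.77, 1.21, 1.02 and 1.35 TPM in PIM1+/-. PIM1+/- replicate 1 stood apart and the other libraries were all near 1 TPM, at the filter, so that 0.62 ± 0.31 (adjusted p = 0.199) was not called. Pfkfb2, at 6.55 to 8.79 TPM, differed by 0.09 ± 0.11 (adjusted p = 0.625), a value that became -0.01 under the rescaling. The summed PFKFB level of these 3 genes overlapped, at 20.0 ± 1.51 TPM and 19.2 ± 2.90 TPM, and Pfkfb2 shares exons on the same strand with the gene model Gm29427.

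Lower glycolysis, which yields ATP and pyruvate, held 3 genes that rose among 5 tested and none that fell. Gapdh, the triose dehydrogenase and the most abundant of the 33 genes, measured 1770, 1933, 1893 and 1591 TPM in WT and 2139.8, 2203, 2037 and 2134 TPM in PIM1+/-. All PIM1+/- libraries exceeded all WT libraries, and the gene rose by 0.25 ± 0.07 (adjusted p = 0.032). The mouse genome holds many processed copies of Gapdh. Among the listed genes, 178 annotated copies at 90% identity or more carried 30.6% of the summed Gapdh TPM, and with them added to the gene the change was 0.27 ± 0.06 (adjusted p = 0.019). Pgk1 (ENSMUSG00000062070, chrX:106187100-106203699), the first ATP-yielding enzyme, measured 243, 263, 244 and 213 TPM in WT and 341, 309, 292 and 296 TPM in PIM1+/-. No PIM1+/- library reached down to the WT range, and the change was 0.36 ± 0.07 (adjusted p = 0.0114). Pgam1, a mutase, ranged from 164 to 208 TPM and was not called, at 0.11 ± 0.06 (adjusted p = 0.226); copies held 11.1% of its summed TPM, and the sum gave 0.14 ± 0.05 (adjusted p = 0.1).

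Enolase differed between the genotypes in its make-up, while its total overlapped. Eno1 (ENSMUSG00000063524, chr4:150236721-150248879), the ubiquitous form, measured 368, 379, 346 and 322 TPM in WT and 499.5, 505, 466 and 450 TPM in PIM1+/-. It was higher in every PIM1+/- library than in any WT library, with a change of 0.44 ± 0.06 (adjusted p = 0.00252). Eno3, the muscle form and no member of the 33, measured 189, 133, 168 and 160.4 TPM in WT and 39.9, 74.1, 95.8 and 76.2 TPM in PIM1+/-. It was lower in every PIM1+/- library, with a change of -1.23 ± 0.23 (adjusted p = 0.00816). Eno1 thus made up 68.5% ± 3.69 of enolase TPM in WT and 87.0% ± 4.10 in PIM1+/-, with the rest nearly all Eno3. The summed enolase level was 516 ± 30.8 TPM and 552 ± 23.3 TPM. Pkm, the last enzyme of glycolysis, measured 612, 591, 571 and 556 TPM in WT and 529, 584, 596 and 555 TPM in PIM1+/-. The genotypes overlapped, and its difference of -0.04 ± 0.05 (adjusted p = 0.636), with a 95% interval from -0.16 to 0.08, was not called.

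**Figure D2:**
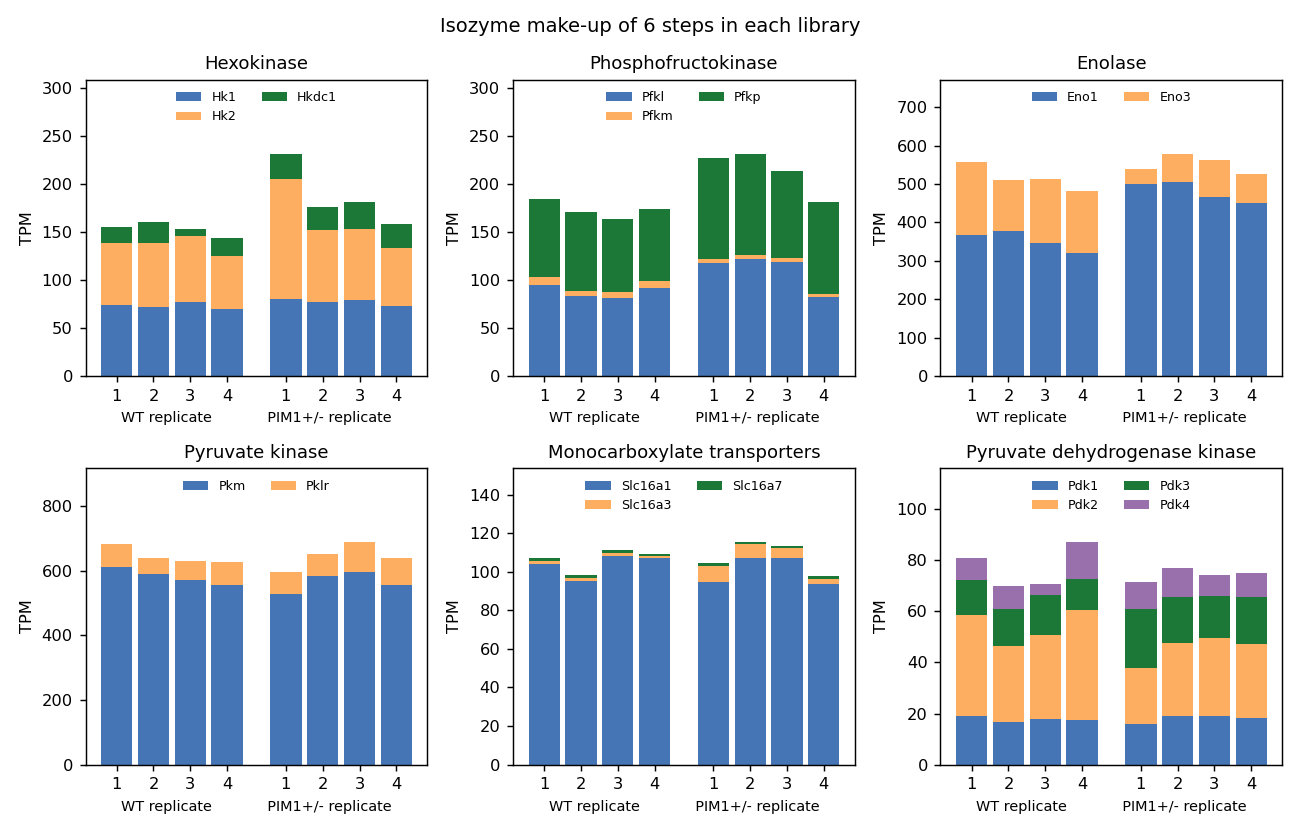
Stacked bars of TPM per library for the genes that share 6 steps, with WT replicates 1 to 4 at the left of each panel and PIM1+/- replicates 1 to 4 at the right; genes below 1% of their step in every library are not drawn. In the enolase panel Eno3 fills 31.4% of the bar in WT and 12.9% in PIM1+/- on average, with mean totals of 516 and 552 TPM, and the pyruvate kinase totals average 645 and 644 TPM.

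In the lactate branch the reductase and the exporter rose, and the 2 member genes for the E1 subunits of pyruvate dehydrogenase were not called. Ldha (ENSMUSG00000063229, chr7:46841475-46855627), which reduces pyruvate to lactate, measured 891, 926, 820.1 and 763 TPM in WT and 1187, 1176, 1063 and 981 TPM in PIM1+/-. Each PIM1+/- library was above each WT library, with a change of 0.37 ± 0.08 (adjusted p = 0.0143). Ldha supplied 99.5% ± 0.086 of lactate dehydrogenase TPM in WT. Ldhb, the heart form, ranged from 3.63 to 5.58 TPM, and its value of 0.03 ± 0.13 (adjusted p = 0.899) turned negative under 3 scalings. Slc16a3 (ENSMUSG00000025161, chr11:120948480-120960868), which encodes the lactate exporter MCT4, measured 1.67, 1.85, 1.70 and 0.840 TPM in WT and 8.15, 7.42, 5.15 and 2.92 TPM in PIM1+/-. The groups were apart, the PIM1+/- libraries were spread over a wide range, and the ratio of means was 3.90, with a change of 1.40 ± 0.27 (adjusted p = 0.00803). Its level stayed low beside that of the related Slc16a1. Slc16a1, which encodes MCT1 and carries butyrate and lactate in colonocytes, held 96.9% ± 0.795 of the TPM of 4 monocarboxylate transporters in WT and 93.1% ± 2.30 in PIM1+/-, and Slc16a3 held 1.43% ± 0.470 and 5.42% ± 2.09. The summed transporter level overlapped, at 107 ± 5.73 TPM and 108 ± 8.09 TPM. Bsg, the chaperone that brings both transporters to the membrane, rose from 821 ± 19.5 to 921 ± 19.8 TPM (log2 change 0.17 ± 0.04, adjusted p = 0.0236), a call kept in 6 of the 17 alternatives.

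Slc16a3 is also expressed in leukocytes, whose markers were higher in PIM1+/-. In PIM1+/- replicates 1 to 4 the summed lymphocyte markers were 44.8, 26.1, 49.0 and 56.1 TPM and the summed macrophage, mast cell and granulocyte markers 13.9, 17.4, 14.4 and 17.7 TPM, beside Slc16a3 at 8.15, 7.42, 5.15 and 2.92 TPM. Their part in the Slc16a3 values was not tested. Slc2a3, the glucose transporter of leukocytes and neurons, was at 0.02 to 0.12 TPM in WT and 0.13 to 2.47 TPM in PIM1+/-, with the top value in replicate 3.

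Pyruvate dehydrogenase commits pyruvate to oxidation, its kinases switch it off and its phosphatases switch it on. Pdha1 and Pdhb, the E1 subunits, ranged from 127 to 161 TPM and from 117 to 145 TPM. Neither was called, at -0.15 ± 0.07 (adjusted p = 0.188) and 0.08 ± 0.06 (adjusted p = 0.431). Under rescaling without mitochondrial transcripts and nuclear copies Pdha1 was called lower and Pdhb turned negative, and Pdha1 was also called lower without PIM1+/- replicate 4 (adjusted p = 0.0222). Pdk1, an inhibitory kinase and hypoxia target, ranged from 15.8 to 19.1 TPM, and its value of 0.02 ± 0.08 (adjusted p = 0.903) changed sign under 3 scalings. Of 15 related genes tested, 2 rose and 2 fell (13.3% each, against 8.93% and 8.54% of all tested genes), with a median of -0.04. Pdp2, a phosphatase, fell from 9.08 ± 1.38 to 4.48 ± 0.778 TPM (log2 change -0.88 ± 0.14, adjusted p = 0.00323), and Dlat, the E2 subunit, fell from 47.2 ± 2.14 to 38.1 ± 4.36 TPM (log2 change -0.31 ± 0.08, adjusted p = 0.0334). Pdk3, a further kinase, rose from 14.0 ± 1.42 to 19.0 ± 2.80 TPM (log2 change 0.41 ± 0.11, adjusted p = 0.0332). Pdk2, on average the most abundant kinase, was at 36.3 ± 6.11 TPM in WT and 27.4 ± 3.73 TPM in PIM1+/-, with overlap. Its change of -0.39 ± 0.13 (adjusted p = 0.0769) was not called. The summed kinase level overlapped, at 77.0 ± 8.25 TPM and 74.3 ± 2.21 TPM. Pdp2 made up 66.0% ± 3.68 of the TPM of the 2 phosphatase genes in WT and 43.1% ± 8.91 in PIM1+/-, and their total was 13.7 ± 1.51 TPM and 10.5 ± 0.712 TPM, without overlap. Dlat was called in 9, Pdk3 in 8 and Pdp2 in all of the 17 alternatives.

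Both arms of the pentose phosphate pathway held genes that rose and none that fell. The oxidative arm summed to 347 ± 14.1 TPM in WT and 419 ± 13.5 TPM in PIM1+/-, and 2 of its 3 genes rose. G6pdx, glucose 6-phosphate dehydrogenase and the rate-limiting enzyme, measured 36.5, 41.6, 41.4 and 32.3 TPM in WT and 52.6, 48.6, 45.2 and 45.1 TPM in PIM1+/-. The genotypes were separate, with WT replicate 4 lowest, and the change was 0.33 ± 0.09 (adjusted p = 0.0357). Exons of G6pdx overlap Ikbkg on the opposite strand, at 16.5 TPM in WT and 14.96 TPM in PIM1+/-. Pgd (ENSMUSG00000028961, chr4:149149991-149166771), the second NADPH-yielding dehydrogenase, measured 202, 205, 188 and 186 TPM in WT and 259, 247, 241 and 234 TPM in PIM1+/-. The lowest PIM1+/- library was well above the highest WT library, and Pgd rose by 0.33 ± 0.05 (adjusted p = 0.0038). Pgls, the lactonase between them, ranged from 107 to 133 TPM and was not called, at 0.14 ± 0.06 (adjusted p = 0.156).

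The non-oxidative arm summed to 555 ± 14.0 TPM in WT and 707 ± 36.5 TPM in PIM1+/-, a ratio of 1.27, and 2 of its 4 genes rose. Taldo1 (ENSMUSG00000025503, chr7:141392199-141402968), transaldolase, had the smallest p of the 32 genes and measured 339, 342, 328 and 322 TPM in WT and 472, 429, 428 and 457 TPM in PIM1+/-. Its spread within each genotype was small beside the gap between them, and the change was 0.42 ± 0.05 (adjusted p = 0.000719). Tkt, transketolase, measured 182, 185, 183 and 173 TPM in WT and 227, 200.2, 204 and 213 TPM in PIM1+/-. The genotypes did not overlap, with a change of 0.22 ± 0.05 (adjusted p = 0.0199). Rpia and Rpe, which interconvert ribulose, ribose and xylulose phosphates, differed by 0.21 ± 0.08 (adjusted p = 0.0952) and 0.28 ± 0.09 (adjusted p = 0.0555), and neither was called. Rpe was called when genes below a mean of 5 TPM were left out.

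**Figure D3:**
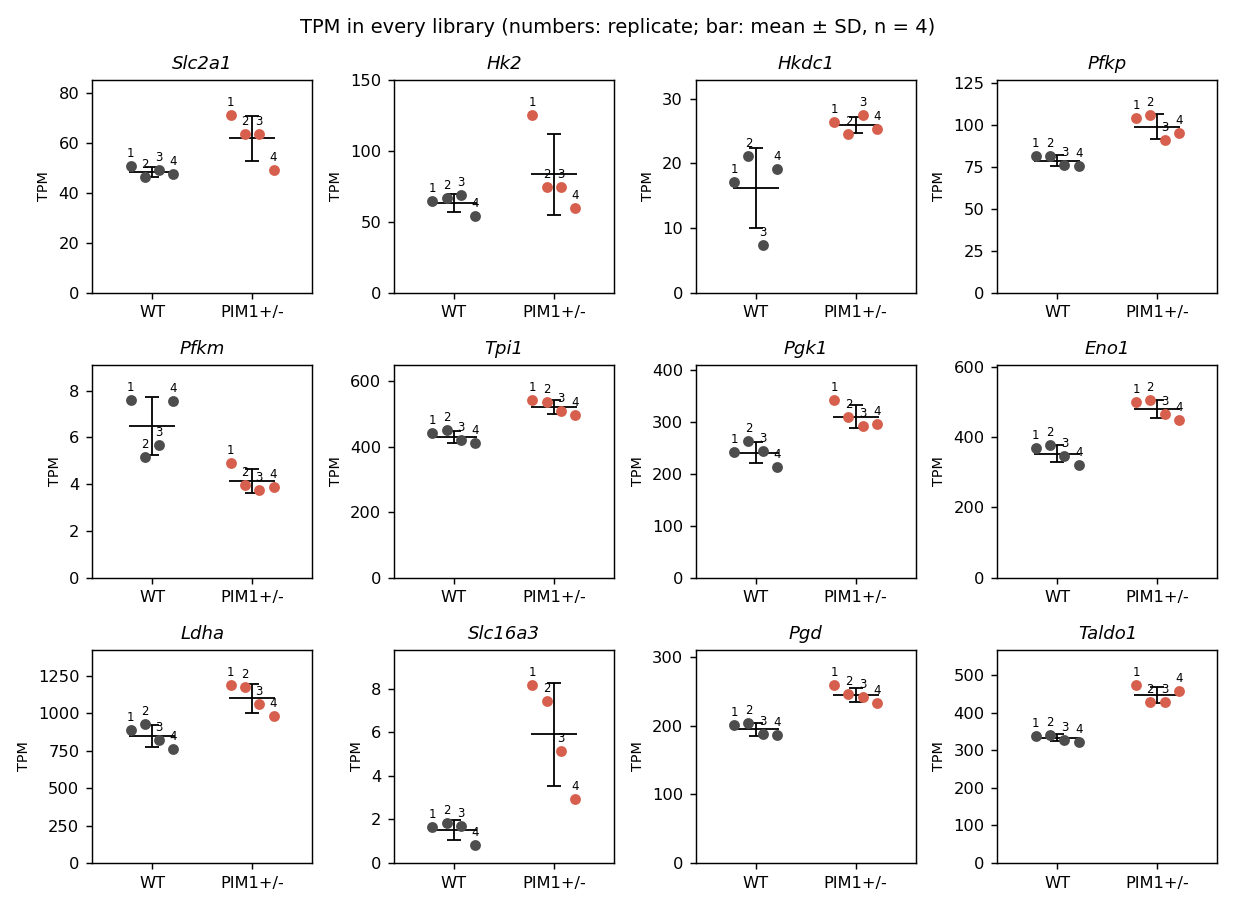
TPM of 12 genes in each library (points, numbered by replicate), with mean and SD of 4 libraries per genotype; each vertical axis starts at 0. Taldo1, Eno1, Pgd and Tpi1 show 2 tight separate groups, whereas PIM1+/- replicate 1 carries the high value of Hk2 (125 TPM) and PIM1+/- replicate 4 the low value of Slc2a1 (49.3 TPM).

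Single libraries recurred across genes. WT replicate 4 was the lowest WT library for 20 of the 32 genes and the highest for 0. Among PIM1+/- libraries, replicate 1 was the highest for 17 of the 32, and replicate 4 the lowest for 13. Among the 13 genes that rose, replicate 1 was the highest PIM1+/- library for 9 and replicate 4 the lowest for 8.

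Genes around these steps moved in both directions. Of 27 other tested genes of glycolysis, gluconeogenesis and hexose entry 3 rose and 7 fell (11.1% and 25.9%, against 8.93% and 8.54% of all tested genes), with a median of -0.05. Among genes of glucose production, Pck1, Pcx and G6pc3 fell, and Pck2, Fbp1, Fbp2 and Slc37a4 were not called, Fbp2 with 147 ± 4.62 TPM in WT and 159 ± 2.52 TPM in PIM1+/- without overlap. Pck1, the cytosolic carboxykinase that commits oxaloacetate to gluconeogenesis, measured 141, 115, 128 and 146 TPM in WT and 90.5, 89.7, 85.2 and 90.8 TPM in PIM1+/-. The genotypes were apart, and Pck1 fell by 0.56 ± 0.08 on the log2 scale (adjusted p = 0.00177). Pcx, pyruvate carboxylase, fell from 34.0 ± 2.18 to 25.0 ± 3.51 TPM (log2 change -0.43 ± 0.10, adjusted p = 0.0173). G6pc3, a ubiquitous glucose 6-phosphatase, fell from 44.1 ± 4.41 to 34.4 ± 1.31 TPM (log2 change -0.35 ± 0.07, adjusted p = 0.014). Khk, the first enzyme of fructose use, fell from 18.7 ± 1.04 to 15.0 ± 0.986 TPM (log2 change -0.30 ± 0.07, adjusted p = 0.022), and Galm, galactose mutarotase, was lower at -0.30 ± 0.08 (adjusted p = 0.0284). Pgm2, a phosphopentomutase, rose from 53.7 ± 2.28 to 68.7 ± 3.36 TPM (log2 change 0.35 ± 0.06, adjusted p = 0.00367). Gpd2, the mitochondrial glycerol 3-phosphate dehydrogenase that re-oxidises cytosolic NADH, rose from 14.9 ± 1.09 to 20.8 ± 2.28 TPM (log2 change 0.46 ± 0.09, adjusted p = 0.0094). Eno3, Pck1, Pcx, Pgm2 and Gpd2 were called in all 17 alternatives. G6pc3 was called in 16 of them, Khk in 13, Galm in 10 and Slc2a8 in 9.

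Beyond the core pentose phosphate enzymes, 3 of 8 related genes rose and 2 fell (37.5% and 25% of a short list, against the same 8.93% and 8.54%), with a median of 0.13. H6pd, the counterpart of G6pdx and Pgls inside the endoplasmic reticulum, measured 4.53, 4.47, 4.25 and 4.35 TPM in WT and 12, 8.90, 7.42 and 9.13 TPM in PIM1+/-. Its WT libraries were nearly equal and all PIM1+/- libraries were higher, with a change of 0.92 ± 0.13 (adjusted p = 0.00184). Prpsap1, a partner of the enzyme that makes phosphoribosyl pyrophosphate, rose from 108 ± 14.3 to 161 ± 7.75 TPM (log2 change 0.57 ± 0.09, adjusted p = 0.00396). Prps1, that enzyme itself, fell from 10.4 ± 0.492 to 7.98 ± 0.572 TPM (log2 change -0.35 ± 0.08, adjusted p = 0.0154). Dera, deoxyribose phosphate aldolase, rose from 33.5 ± 1.45 to 41.7 ± 2.58 TPM (log2 change 0.31 ± 0.06, adjusted p = 0.0104), and Shpk, sedoheptulokinase, fell from 8.88 ± 0.626 to 7.12 ± 0.545 TPM (log2 change -0.28 ± 0.08, adjusted p = 0.0482), the last a call lost in 11 of the 17 alternatives.

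Of 9 genes for other sources of NADPH 2 were called higher (22.2%, against 8.93%), with a median of 0.09. The 2 called lower (22.2%, against 8.54%) include Me3, set apart below, so that share is not read. Me1, the cytosolic malic enzyme, measured 7.14, 8.16, 4.95 and 7.55 TPM in WT and 26.6, 13.0, 11.4 and 11.5 TPM in PIM1+/-. PIM1+/- replicate 1 was far above its group, although all 4 exceeded WT, and the change was 0.995 ± 0.26 (adjusted p = 0.0279). Mthfd2, a mitochondrial folate dehydrogenase, rose from 4.23 ± 1.16 to 9.57 ± 3.38 TPM (log2 change 0.99 ± 0.23, adjusted p = 0.0177). Aldh1l1, which makes NADPH from formyl folate in the cytosol, fell from 60.7 ± 5.30 to 42.9 ± 5.15 TPM (log2 change -0.49 ± 0.10, adjusted p = 0.00906). Me3, a mitochondrial malic enzyme, measured 1.11 to 1.47 TPM in WT and 0.21 to 0.60 TPM in PIM1+/-, and it passed the filter through WT alone, so nothing is read from its call. The calls on Me1 and Mthfd2 were lost without WT replicate 4, and that on Me1 also without WT replicate 1 or 3.

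Of 17 tricarboxylic acid cycle genes 4 rose and none fell (23.5% higher, against 8.93%), with a median of 0.08. Mdh2, malate dehydrogenase, rose from 329 ± 13.3 to 405 ± 3.65 TPM (log2 change 0.30 ± 0.04, adjusted p = 0.00247), and Sdhc and Sdhb, subunits of succinate dehydrogenase, were higher at 0.26 ± 0.05 (adjusted p = 0.00876) and 0.22 ± 0.05 (adjusted p = 0.0227). Under the rescaling without mitochondrial transcripts and nuclear copies the median became -0.03, and 1 gene was called higher and 1 lower. Mdh2 was called in all 17 alternatives, Sdhc in 16 and Sdhb in 8.

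Of 12 regulators of glycolytic genes, which are transcription factors and proteins that control them such as prolyl hydroxylases, none rose and 2 fell, with a median of -0.12. That is 16.7% called lower, against 8.54% of all tested genes, and none called higher, against 8.93%. In either direction 16.7% were called, near the 17.5% of all tested genes. Epas1, which encodes the hypoxia-inducible factor HIF-2α, measured 36.1, 36.0, 31.4 and 37.8 TPM in WT and 16.7, 21.3, 22.1 and 23.8 TPM in PIM1+/-. Each PIM1+/- library was below each WT library, and Epas1 fell by 0.73 ± 0.11 on the log2 scale (adjusted p = 0.00261). Mlxip, a glucose-responsive factor, fell from 27.6 ± 2.53 to 21.5 ± 2.61 TPM (log2 change -0.35 ± 0.10, adjusted p = 0.0381), a call lost in 9 of the 17 alternatives. Hif1a and Myc were not called, at 0.07 ± 0.17 (adjusted p = 0.826) and -0.07 ± 0.12 (adjusted p = 0.74), and each changed sign under at least 1 alternative. Of 12 hypoxia targets outside glycolysis 2 rose and 1 fell (16.7% and 8.33%, against 8.93% and 8.54%), with a median of 0.03. Higd1a, a mitochondrial protein, rose from 157 ± 38.8 to 252 ± 29.0 TPM (log2 change 0.70 ± 0.15, adjusted p = 0.0143). Car9, carbonic anhydrase IX, rose from 38.6 ± 1.85 to 46.5 ± 2.12 TPM (log2 change 0.26 ± 0.06, adjusted p = 0.0164), a call kept in 14 of the 17 alternatives, and Bnip3, a mitophagy receptor, fell from 12.2 ± 3.06 to 6.66 ± 1.35 TPM (log2 change -0.77 ± 0.18, adjusted p = 0.0193).

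**Figure D4:**
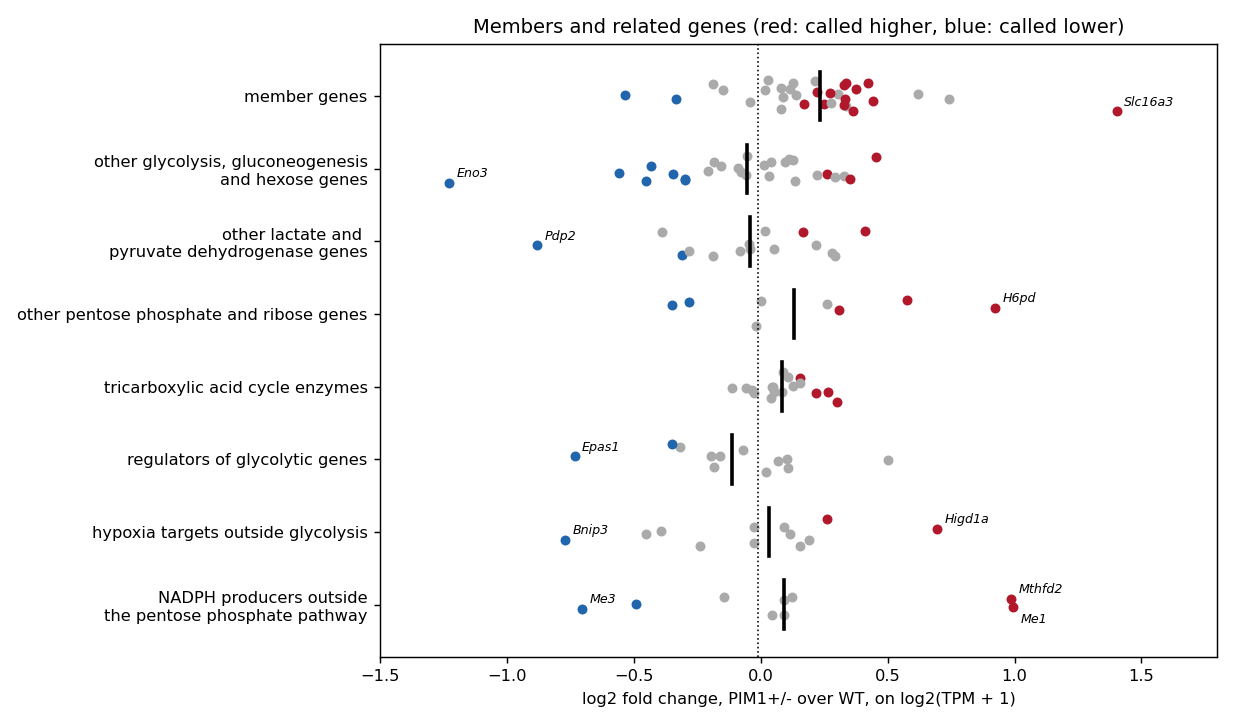
Log2 fold change of PIM1+/- over WT on log2(TPM + 1) for each tested gene of 8 lists, 1 point per gene, with points spread vertically only for legibility; the black bar is the list's median and the dotted line the median of all tested genes. The 32 member genes have a median of 0.23, and the medians of the other lists drawn lie between -0.12 and 0.13. Marker lists are not drawn, and the 12 epithelial markers also had a median of 0.23.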

How the data were processed

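The authors deposited 1 table of TPM per gene for the 8 libraries, quantified with RSEM per the series' design text, and rounded to hundredths. Tools listed in the submitters' processing notes are HISAT2, StringTie, RSEM and edgeR, on build GRCm38.p6. The sources used here do not give the annotation release, strand setting or read depth. RNA was extracted with TRIzol per the labels' protocols. Columns were matched to samples by genotype and replicate number, and 0 per-sample columns were left out.

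From these values, log2(TPM + 1) was computed and tested with limma 3.58.1 in R 4.3.3 on genotype (empirical Bayes with trend, two-sided, Benjamini-Hochberg adjustment, threshold 0.05). Testing was limited to 12760 genes that reached 1 TPM in 4 or more libraries, a filter that a gene low in 1 genotype could pass through the other. Step sums, isozyme shares and promoter counts carry no test. The member genes, related lists and markers were chosen with earlier results of these data known. From each related list the genes that were called are named, up to 6 by smallest p. Khk, Slc2a8 and Galm were named beyond the rule. So were Hif1a, Myc, Pdk2, Slc2a3, Slc16a1, Hk3, Pck2, Fbp1, Fbp2, Slc37a4 and some markers, after their values were seen. A few called list genes are not reported here.

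Gene coordinates are those of GENCODE M21, on GRCm38. Near-identical copies were annotated transcripts aligned by BLAST+ 2.17.0 to a member or mitochondrial transcript (identity 90% or more, over 80% or more of the copy). Promoter windows came from RefSeq, GRCm38.p6, for all 33 genes. Alternatives were limma without the trend, 3 other scalings (upper quartile, without mitochondrial transcripts, and without these and their nuclear copies), the replicate number as a block, a pseudocount of 0.1, no filter, a 5 TPM minimum on the mean, thresholds of 0.01 and 0.10, summing with pseudogene copies, and leaving out each library in turn. The last scaling and the summing with copies were added after the data were seen. The tests were also run on simulated data in which genes varied independently, with no shift shared across a library. Such data do not cover the dependence on scaling and on single libraries given here. Figures were drawn with matplotlib 3.10.9.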

Additional observations from a re-analysis of the deposited data

Results flagged for a closer look

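In 5 of the 66 groups of 4 libraries examined, 1 library stood apart from the other 3 by Dixon's 95% criterion, which chance meets in about 1 of 20 groups. Gpi1, glucose 6-phosphate isomerase, was at 332.78 TPM in WT replicate 3, below 354 to 357 TPM in the other WT libraries. Pfkl, the liver phosphofructokinase subunit, was at 81.85 TPM in PIM1+/- replicate 4, below 117 to 122 TPM in the other PIM1+/- libraries. Pfkm, the muscle subunit, was at 4.89 TPM in PIM1+/- replicate 1, above 3.76 to 3.95 TPM. Pfkfb3, a fructose 2,6-bisphosphate kinase, was at 4.77 TPM in PIM1+/- replicate 1, above 1.02 to 1.35 TPM. Pdhb, a pyruvate dehydrogenase E1 subunit, was at 117.1 TPM in WT replicate 4, below 130 to 133 TPM in the other WT libraries.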

How the results depend on the processing

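Against 13 members higher, 2 lower and a member median of 0.23, with 1139 of all genes higher and 1090 lower, rescaling without mitochondrial transcripts gave a median of 0.17, and leaving out the nuclear copies too gave 0.13, with 8 members higher, and 736 of all genes higher and 2237 lower. With no filter on low values 0 members were lower and 666 genes were lower. At a threshold of 0.01, 6 members were higher and 0 lower, with 471 genes higher and 365 lower. Leaving out each library in turn gave 8 to 13 members higher and 0 to 2 lower, and 744 to 1009 genes higher and 602 to 1041 lower. Calls fell to 8 higher without WT replicate 1 or 4. The count of members lower fell to 0 without these or PIM1+/- replicate 2 or 3, and to 1 without WT replicate 2 or 3. The cause was not tested.

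The replicate block gave 8 members higher and 1 lower, and 760 genes higher and 689 lower. Same-numbered libraries did not deviate together (correlations of -0.14, 0.03, -0.03 and -0.07), and no library correlated best with its own number. The labels name no shared day or litter, so it is not known whether the numbers pair the samples.

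Some uncalled values changed sign. Pdk1 became -0.0268 under upper quartile scaling, -0.0399 without mitochondrial transcripts and -0.0865 without copies too. Ldhb became -0.0092, -0.0203 and -0.0622 under those scalings. Under the last one Pdhb became -0.0281, Pfkfb2 -0.0093, Hk1 -0.0285 and Hif1a -0.039. Leaving out single libraries gave -0.0128 to 0.077 for Pdk1, -0.0503 to 0.0942 for Ldhb, -0.0433 to 0.2003 for Hif1a and -0.1457 to 0.0279 for Myc.

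TPM keeps no depth, so counting error could not be set against these differences, least of all for Pfkfb3, Slc16a3, Ldhb and Pfkm below 10 TPM.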
